A study of Homo sapiens with 30 samples.

Results

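NEAT1, MALAT1, KCNQ1OT1, TUG1 and NORAD are long RNAs that code for no protein. They were followed across A549 cells, a human lung carcinoma line of epithelial type, after 24 h with an ethanol extract of a Korean tonifying formula. The 5 genes were found by matching gene symbols to the Ensembl identifiers of the deposited table, and they make up 5 of its 60675 gene rows. NEAT1 was chosen by its measured counts, which were low with Sibjeondaebo-tang at the high dose, and the others were chosen beside it. Every comparison that holds that group is therefore a description of the 5 RNAs, without a test.

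The extracts were Sibjeondaebo-tang and Palmul-tang with 3 libraries per dose, Samul-tang with 2 per dose (numbered 2 and 3) and Sagunja-tang with 1 per dose (numbered 3). Doses were 20 µg/mL (low), 100 µg/mL (medium) and 500 µg/mL (high). The vehicle was DMSO with 3 libraries, at 0.1% in the sample labels and at 2% in the text of the series, and which of these applies is not settled by the files. By tradition, Palmul-tang joins the Samul-tang herbs to those of Sagunja-tang, and further herbs added to Palmul-tang give Sibjeondaebo-tang. Together these are 30 libraries in 13 groups from a single cell line, and the labels do not say whether replicates were separate cultures, so the SDs and p-values here measure spread that may be technical.

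Long non-coding RNAs act as RNA, and where they sit in the cell differs among the 5. NEAT1 is the scaffold of paraspeckles, nuclear bodies built on its long isoform by RNA-binding proteins such as NONO and SFPQ, and it is induced by many forms of cell stress. MALAT1 lies beside NEAT1 on chromosome 11, is enriched at nuclear speckles, the stores of splicing factors, and was first described in lung cancer. KCNQ1OT1 is transcribed antisense to KCNQ1 from the paternal allele and silences imprinted neighbours in cis. TUG1 is found in both nucleus and cytoplasm, and NORAD is largely cytoplasmic, where it binds Pumilio proteins and limits their activity.

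On GRCh38, with GENCODE v29 used here because the authors' release is not given in the sources used here, NEAT1 (ENSG00000245532) lies at chr11:65422774-65445540 on the plus strand and MALAT1 (ENSG00000251562) at chr11:65497688-65506516 on the same strand. KCNQ1OT1 (ENSG00000269821) lies at chr11:2608328-2699994 on the minus strand, inside the gene KCNQ1, with 121 bases of shared exon on the opposite strand. TUG1 (ENSG00000253352) lies at chr22:30969245-30979395 on the plus strand. NORAD (ENSG00000260032) lies at chr20:36045622-36050960 on the minus strand. The merged exons span 22767 bases for NEAT1, 8829 for MALAT1, 91667 for KCNQ1OT1, 10151 for TUG1 and 5339 for NORAD. Counts were given per gene, so the short and long isoforms of NEAT1 could not be told apart.

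The ends of long NEAT1 and of MALAT1 are shown because these RNAs do not end in an ordinary poly(A) tail. Each is cut by RNase P beside a tRNA-like structure, and U-rich stretches pair with the A-rich end in a triple helix. In the 100 bases up to that end, written as DNA of the RNA's own strand, capitals mark the A-rich motif AAAAGCAAAA, which is the last 10 bases of long NEAT1, its reverse complement TTTTGCTTTT, and the U-rich motif TTTCTTTT. No 2 of the marked matches overlap.
NEAT1, chr11:65445441-65445540, plus strand: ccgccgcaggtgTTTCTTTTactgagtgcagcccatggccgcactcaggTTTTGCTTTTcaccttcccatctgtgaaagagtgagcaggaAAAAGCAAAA
MALAT1, chr11:65506017-65506116, plus strand: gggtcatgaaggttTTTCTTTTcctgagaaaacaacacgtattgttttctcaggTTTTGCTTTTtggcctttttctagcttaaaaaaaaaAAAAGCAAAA
The NEAT1 stretch closes the annotated long transcript, and the MALAT1 stretch stops 353 bases before the annotated end of its transcript. Of the last 100 bases of 56074 annotated non-coding transcripts, searched on the RNA's strand only, 0.146% held AAAAGCAAAA, 0.07% held TTTTGCTTTT and 1.2% held TTTCTTTT. Long NEAT1, from which AAAAGCAAAA was taken, was not left out of this search. A match is a description of letters and not a mapped structure.

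NORAD is known for repeated copies of the Pumilio recognition motif, TGTANATA, which is in capitals in the first 4 windows of 30 bases that hold it, all on the minus strand of chromosome 20.
NORAD site 1, chr20:36050182-36050211: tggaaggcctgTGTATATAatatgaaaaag
NORAD site 2, chr20:36049803-36049832: cctcactactgTGTATATAgttgacaatgc
NORAD site 3, chr20:36049702-36049731: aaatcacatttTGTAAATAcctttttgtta
NORAD site 4, chr20:36049501-36049530: ttacttatctgTGTATATAgTGTACATAaa
The motif occurred 15 times in NORAD on the RNA's strand, or 2.81 times per kb. It occurred 6 times in long NEAT1, 9 times in KCNQ1OT1, 2 times in the TUG1 transcript searched (7469 bases) and 0 times in MALAT1. Among 484 annotated non-coding transcripts of 4500 to 6500 bases, NORAD itself included, 37.2% held at least 1 copy and 0.62% held at least as many as NORAD.

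Library totals ran from 23986637 to 35159898 expected counts, with a median of 32383996, and all 5 RNAs were among the 17701 genes abundant enough to test. Epithelial KRT8 (3350 to 4400 CPM, counts scaled to library size) and KRT18 (2270 to 2920 CPM) were abundant in every library, EPCAM and CDH1 were present, and CD3E, PTPRC, VWF and PECAM1 stayed at or below 0.433 CPM. CD68 (12.7 to 27 CPM), COL3A1 (6.54 to 10.7 CPM) and DCN (4.12 to 6.88 CPM), listed as markers of other cell types, were detected at low levels.

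The libraries fell into 2 sets that cross the groups. Reads on 8 rows inside the 45S ribosomal RNA units of chromosome 21 made up 0.336% to 0.415% of counts in 8 libraries, against 0.071% to 0.132% in the other 22. Nearly all lay on FP671120.3, FP236383.3 and FP236383.2 (mean counts 18114.5, 17182.5 and 17136.4), and each other row averaged at most 0.2. The named rows are annotated as long non-coding RNAs on the minus strand, opposite to the annotated ribosomal RNA rows of these units. Ribosomal counts below are counts on these rows, not a measure of ribosomal RNA itself. The 8 libraries were replicate 2 of Samul-tang at each dose, the high and medium doses of Sagunja-tang, and all 3 vehicle libraries. All Palmul-tang and Sibjeondaebo-tang libraries were in the set of 22. The part of this split in the results was not tested beyond the values given with and without it.

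NEAT1 had 204, 206 and 207 CPM with high-dose Sibjeondaebo-tang, against 530.3, 727 and 736 CPM at its low dose. It had 533, 593 and 629 CPM at the high dose of Palmul-tang, and 586, 561 and 594 CPM in vehicle. The 3 high-dose Sibjeondaebo-tang libraries were close together and lay below every other library, of which the lowest had 419.8 CPM. The log2 difference was -1.69 (SE 0.13) from the low dose of the same formula, -1.51 (SE 0.13) from the high dose of Palmul-tang and -1.50 (SE 0.13) from vehicle. In bulk samples, fewer cells with a transcript and less of it per cell cannot be told apart.

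Most of the difference over the doses of Sibjeondaebo-tang lay between the medium and the high dose. NEAT1 averaged 665 ± 116 CPM at the low dose, 542 ± 33.6 CPM at the medium dose and 206 ± 1.62 CPM at the high dose (SD, n = 3 each). Between the medium and low doses, with 504, 558 and 565 CPM at the medium dose, the groups overlapped and the log2 difference of -0.29 (SE 0.13) did not pass the test (adjusted p = 0.784).

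**Figure D1:**
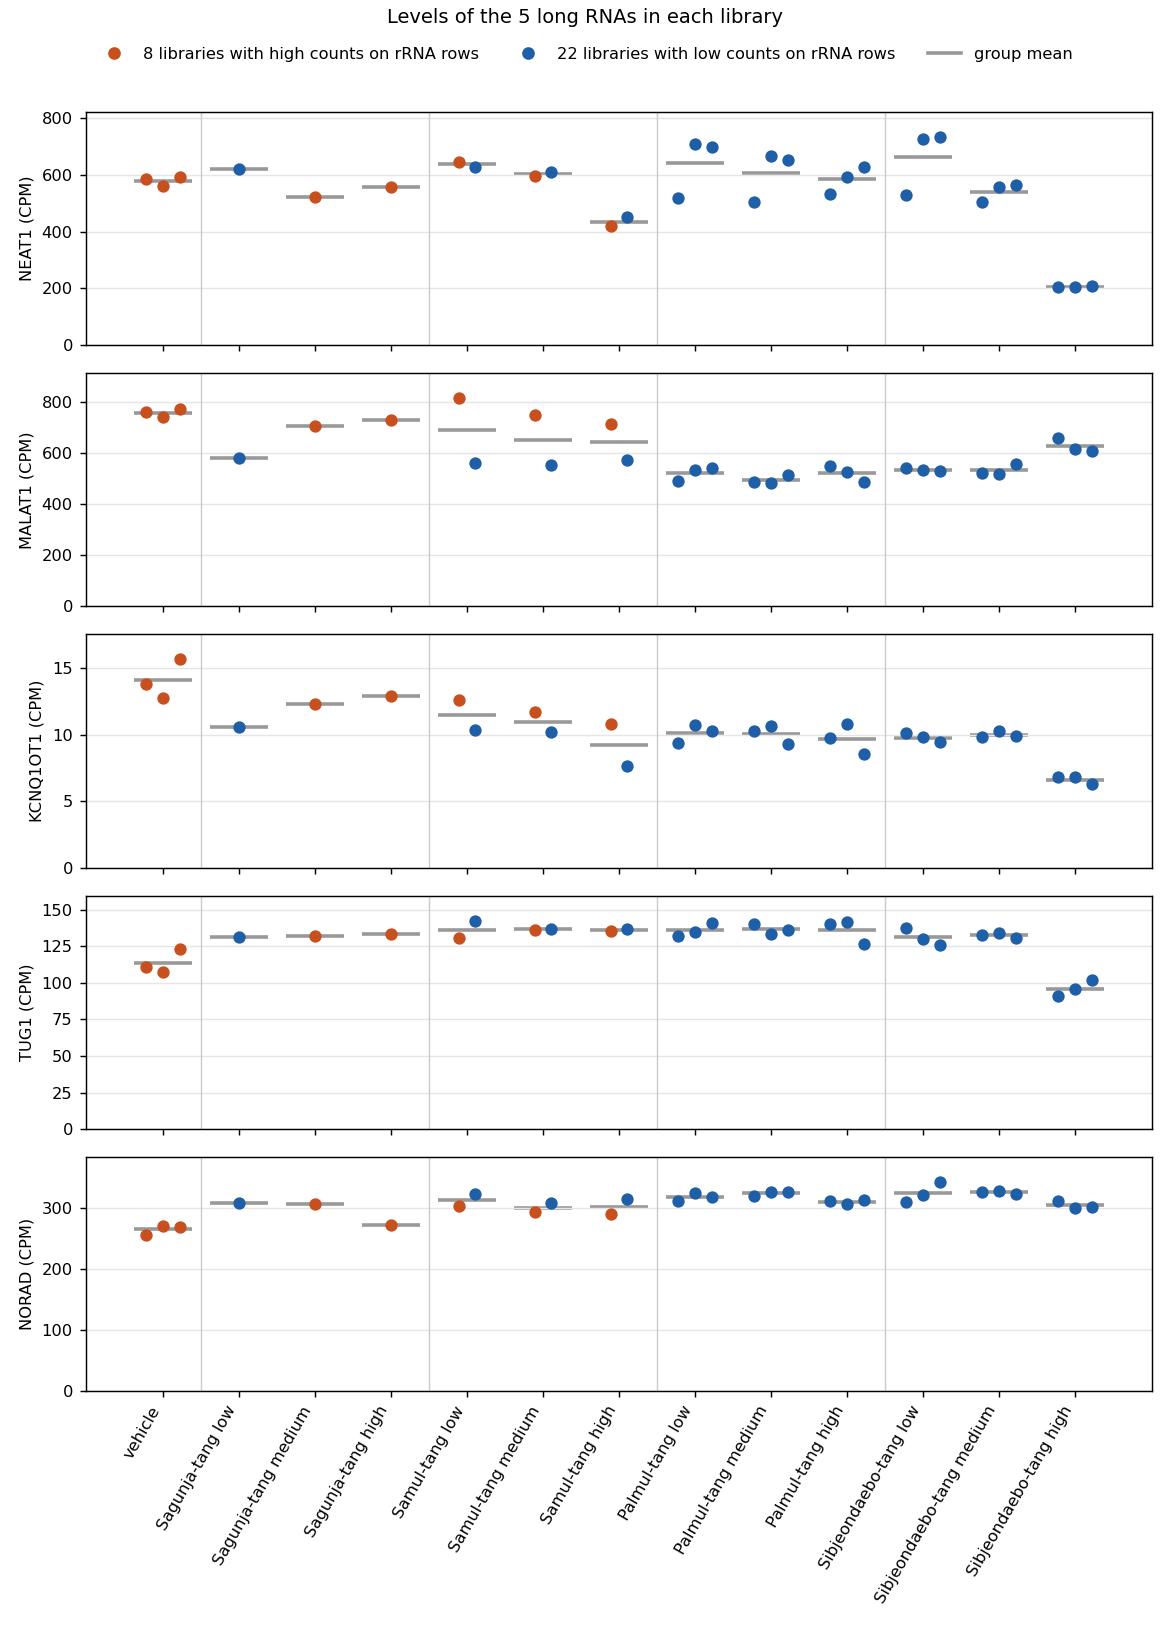
Level of each long RNA in CPM (y axis, from 0) in each of the 30 libraries (points), by formula and dose from low to high with the vehicle at the left (x axis). Grey lines are group means, and colours mark the 8 libraries with high and the 22 with low counts on rows inside ribosomal RNA units. NEAT1, KCNQ1OT1 and TUG1 are lowest at the high dose of Sibjeondaebo-tang, while MALAT1 follows the colours within Samul-tang and Sagunja-tang.

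At the high dose of Samul-tang NEAT1 was the next lowest, with 419.8 and 452 CPM, against 648 and 629.6 CPM at the low dose. The groups did not overlap. The log2 difference of -0.55 (SE 0.16, 95% interval -0.88 to -0.22) did not pass the test over all genes (unadjusted p = 0.00247, adjusted p = 0.0924). It passed in a fit of only these groups (adjusted p = 6.83e-06), where the spread came from 2 libraries per dose. It also passed with DESeq2 (adjusted p = 0.0131). The medium dose had 597 and 612 CPM, between the others. Against vehicle, NEAT1 fell by 0.41 on the log2 scale at the high dose of Samul-tang (SE 0.14, adjusted p = 0.0383), with no overlap. That call was lost when any 1 of the 5 libraries was left out (adjusted p from 0.0563 to 0.197). Within the 8 libraries of high ribosomal counts it was -0.47, a value of a single Samul-tang library (replicate 2) against the 3 vehicle libraries, with no replicate check.

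In Palmul-tang NEAT1 had 519, 709 and 700.4 CPM at the low dose, 505, 667 and 653 CPM at the medium dose and 533, 593 and 629 CPM at the high dose. High and low dose overlapped and differed by -0.14 (SE 0.13, 95% interval -0.40 to 0.13, adjusted p = 0.716). Replicate 1 was the lowest library of its group at each of these doses, and also at the low and medium doses of Sibjeondaebo-tang, where it had 530.3 and 504 CPM. The change with dose in Palmul-tang minus that in Samul-tang was 0.42 (SE 0.20, unadjusted p = 0.0539, adjusted p = 0.928), so a difference between these dose responses was not established. At the high dose Palmul-tang lay above Samul-tang by 0.42 (SE 0.14), with no overlap and an adjusted p of 0.341. The lone libraries of Sagunja-tang had 622 CPM at the low dose, 523 CPM at the medium dose and 558 CPM at the high dose.

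Ordered by group mean, NEAT1 was highest at the low doses of Sibjeondaebo-tang (665 CPM), Palmul-tang (643 CPM) and Samul-tang (639 CPM). Vehicle stood at rank 8 of the 13 groups with 580.4 CPM. From rank 1 to rank 10 the group means ran from 665 to 542 CPM. The SD was 108 and 116 CPM at the low doses of Palmul-tang and Sibjeondaebo-tang. In the other groups of these ranks with more than 1 library it ran from 11.1 to 89.4 CPM. The lowest groups, Samul-tang high with 436 CPM and Sibjeondaebo-tang high with 206 CPM, overlapped neither each other nor any other group.

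**Figure D2:**
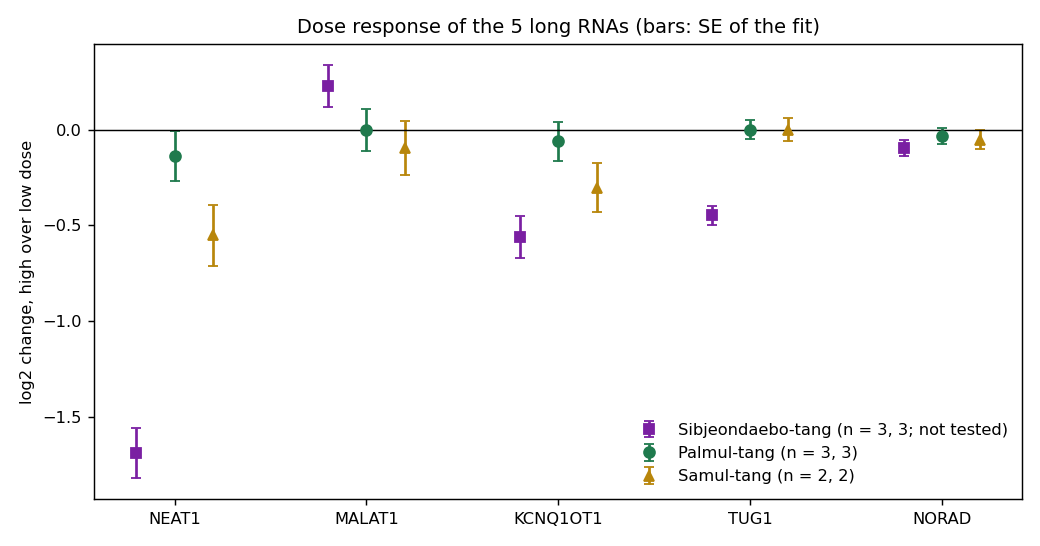
Fitted log2 change between the high and the low dose (y axis) for each long RNA (x axis) in 3 formulas, with bars of 1 SE and n libraries at the high and low dose in the legend. NEAT1 stands at -1.69 in Sibjeondaebo-tang, -0.55 in Samul-tang and -0.14 in Palmul-tang, while NORAD lies between -0.10 and -0.03 in all 3.

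MALAT1, the neighbour of NEAT1, was higher there than in the other libraries with low ribosomal counts. It had 659, 619 and 609 CPM with high-dose Sibjeondaebo-tang, against 544, 535 and 531 CPM at the low dose. These 3 libraries were higher than each of the other 19 libraries with low ribosomal counts, which ran from 482 to 581 CPM. The log2 difference was 0.23 (SE 0.11) from the low dose and 0.27 (SE 0.11) from the high dose of Palmul-tang, where MALAT1 had 553, 526 and 489 CPM. Of all tested genes, 84.3% had a lower log2 change than MALAT1 from the low to the high dose of Sibjeondaebo-tang, and 18.5% were called higher. From vehicle, which had 762, 742 and 773 CPM and lies in the set with high ribosomal counts, the difference was -0.27 (SE 0.11), with no overlap. The ribosomal rows made up 0.132%, 0.119% and 0.107% of counts in the 3 libraries, against 0.082%, 0.096% and 0.122% at the low dose and 0.071%, 0.075% and 0.106% at the high dose of Palmul-tang. These shares overlapped with the low dose but not with Palmul-tang, and their part in the level of MALAT1 was not tested. The ratio of NEAT1 to MALAT1 CPM was 0.31 to 0.341 at the high dose of Sibjeondaebo-tang, 0.974 to 1.39 at its low dose and 0.756 to 0.769 in vehicle, across the library sets.

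The level of MALAT1 also differed between the library sets. In Samul-tang, replicate 2 with high ribosomal counts had 817, 752 and 717 CPM at the low, medium and high dose, and replicate 3 with low counts had 564, 554 and 575 CPM. Sagunja-tang had 581 CPM at the low dose, in the set of low counts, and 707 and 732 CPM at the medium and high doses, in the other. All 8 libraries with high ribosomal counts had 707 to 817 CPM, and all 22 others had 482 to 659 CPM, with no overlap. With the sets as a term in the fit, which the 3 Samul-tang pairs estimate, MALAT1 was 0.43 higher in the 8 libraries on the log2 scale (SE 0.048, adjusted p = 3.45e-06). It was 1 of 5 genes so called among all tested (0.0282%), beside MARK2, which was lower (-0.49), and the ribosomal rows FP671120.3, FP236383.2 and FP236383.3. The sets were defined by the counts on those rows, so the higher level of the rows was fixed in advance and is not a result. KCNQ1OT1 was 0.32 higher (SE 0.084, adjusted p = 0.32), and NEAT1, TUG1 and NORAD differed by -0.03, -0.05 and -0.09. In Samul-tang the set cannot be told apart from the replicate number. RPPH1, the RNA of RNase P, was picked after its values were seen. It had 1.86 to 3.38 CPM in the 8 libraries, against 0.609 to 1.66 CPM in the 22, and was not among the 5 genes called. Replicates 2 and 3 of Samul-tang had 2.13 and 0.726 CPM of RPPH1 at the low dose, 2.65 and 1.42 CPM at the medium dose and 1.86 and 1.66 CPM at the high dose. What lies behind the split was not tested.

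**Figure D3:**
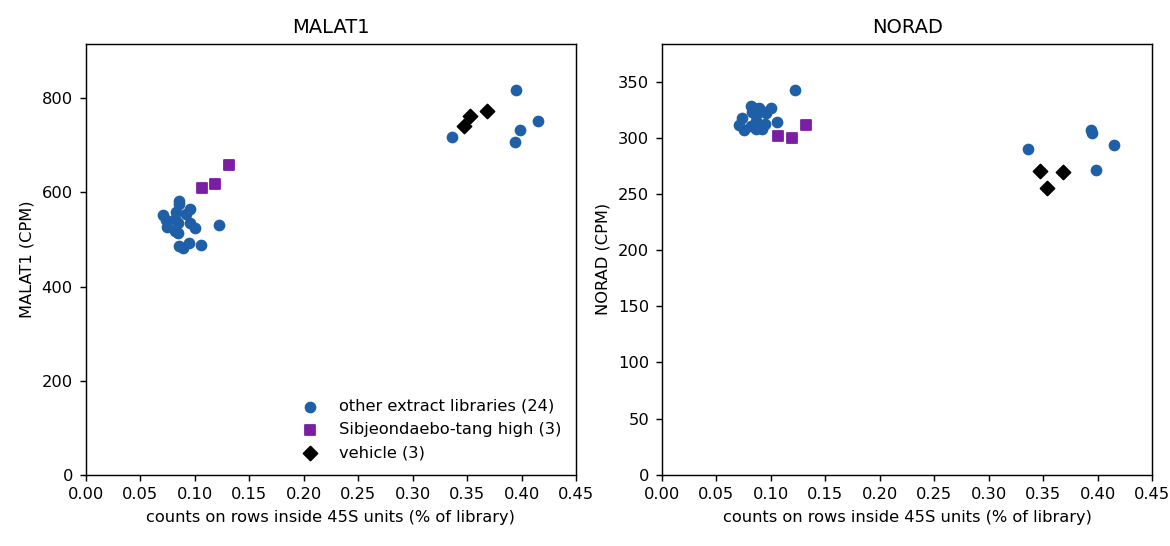
MALAT1 (left) and NORAD (right) in CPM (y axes, from 0) against the percent of each library's counts on rows inside 45S ribosomal RNA units (x axes), 1 point per library. The 8 libraries at 0.336% or more have 707 to 817 CPM of MALAT1, above all 22 libraries at 0.132% or less, and vehicle lies with them.

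KCNQ1OT1, the least abundant of the 5, had 6.84, 6.79 and 6.27 CPM with high-dose Sibjeondaebo-tang, against 10.1, 9.81 and 9.43 CPM at the low dose. The groups did not overlap, and the high-dose libraries were the lowest of all 30. Of all tested genes, 13.9% had a lower log2 change than KCNQ1OT1 between these doses, and 19.9% were called lower. The log2 difference was -0.56 (SE 0.11) from the low dose, -0.55 (SE 0.11) from the high dose of Palmul-tang and -1.08 (SE 0.11) from vehicle, which had 13.8, 12.8 and 15.7 CPM. With the library sets as a term the difference from vehicle was -0.76 (SE 0.12). In Samul-tang the high dose had 10.8 and 7.67 CPM, against 12.6 and 10.4 CPM at the low dose. The difference of -0.30 (SE 0.13) overlapped between groups and did not pass the test (adjusted p = 0.256). It was -0.58 without replicate 2 and -0.08 without replicate 3 of the high dose. In Palmul-tang the high and low doses differed by -0.06 (SE 0.10, adjusted p = 0.866).

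TUG1 had 91.1, 95.5 and 102 CPM with high-dose Sibjeondaebo-tang, against 138, 129.95 and 125 CPM at the low dose. The groups did not overlap, and the log2 difference was -0.45 (SE 0.05) from the low dose and -0.50 (SE 0.05) from the high dose of Palmul-tang. Of all tested genes, 17.3% had a lower log2 change than TUG1 from the low to the high dose of Sibjeondaebo-tang, and 19.9% were called lower. Vehicle had 111, 107 and 123 CPM, above the high dose of Sibjeondaebo-tang and below each of the other 24 extract libraries, which ran from 125 to 142 CPM. TUG1 differed between high and low dose by 0.00 in Palmul-tang (95% interval -0.10 to 0.10) and by -0.002 in Samul-tang (95% interval -0.13 to 0.12).

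NORAD had 312, 300.0 and 301 CPM with high-dose Sibjeondaebo-tang, against 311, 322 and 342 CPM at the low dose. The groups overlapped, with a log2 difference of -0.10 (SE 0.041). Against the high dose of Palmul-tang, which had 312, 307 and 314 CPM, the difference was -0.03 (SE 0.041). Vehicle had 256, 270.4 and 269 CPM and was the lowest of the 13 groups. Of the 5 RNAs, NORAD had the smallest log2 difference in both comparisons among the extracts.

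Per kilobase of annotated exon, the order of the 5 RNAs by mean level in vehicle was MALAT1 with 86 CPM per kb, NORAD with 49.6, NEAT1 with 25.5, TUG1 with 11.2 and KCNQ1OT1 with 0.154. At the high dose of Sibjeondaebo-tang NEAT1 and TUG1 stood close, at 9.04 and 9.46 CPM per kb, against 71.2 for MALAT1, 57 for NORAD and 0.0724 for KCNQ1OT1. In the low dose of the same formula NEAT1 had 29.2 and TUG1 12.9 CPM per kb. These values divide gene counts by the merged exons, 22767 bases for NEAT1 and 10151 for TUG1. The short and long isoforms of NEAT1 could not be told apart, so the values per kb and their order depend on the lengths used.

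Counts of calls were made at an adjusted p of 0.05 over all genes with edgeR. Between doses or formulas, 8 comparisons without the high dose of Sibjeondaebo-tang gave 40 tests of the 5 RNAs, of which 0 passed, 5 had an unadjusted p under 0.05 and 1 passed with DESeq2. Those 5 were NEAT1 and KCNQ1OT1 in Samul-tang high against low, NEAT1 in Sibjeondaebo-tang medium against low, and NEAT1 and MALAT1 in Palmul-tang against Samul-tang at the high dose. Calls were few there among all genes too. They were 3.47% for Palmul-tang high against low, 1.34% for Samul-tang high against low, 0.192% for Palmul-tang against Samul-tang at the high dose and at most 0.0113% in the other 5. In 3 of those 5 edgeR called 0 genes, where 988 (Samul-tang medium against low), 453 (Sibjeondaebo-tang against Palmul-tang at the medium dose) and 426 genes (the same at the low dose) had an unadjusted p under 0.05. DESeq2 called 0, 1 and 0 there. The difference between the dose responses of Palmul-tang and Samul-tang called 0 of the 5 (0 at an unadjusted p under 0.05, 0 with DESeq2) and 0.00565% of all genes.

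Against vehicle, NORAD and TUG1 were higher and KCNQ1OT1 lower in all 5 comparisons tested, and MALAT1 was lower in those of Palmul-tang and Sibjeondaebo-tang. The 5 RNAs gave 4 calls at the low dose of Sibjeondaebo-tang (36.9% of all genes were called), 4 at the low dose (36%) and 4 at the high dose (37.1%) of Palmul-tang, 3 at the low dose (30.7%) and 4 at the high dose (29.2%) of Samul-tang. These comparisons share the 3 vehicle libraries, so they are not independent of each other. NORAD rose by 0.19 to 0.30 on the log2 scale (adjusted p from 1.16e-06 to 0.00203), and TUG1 rose by 0.21 to 0.26 (adjusted p from 0.000116 to 0.00134). KCNQ1OT1 changed by -0.60 to -0.29 (adjusted p from 9.47e-05 to 0.042). MALAT1 changed by -0.50 (SE 0.11, adjusted p = 0.00187) at the low dose of Sibjeondaebo-tang, -0.54 (adjusted p = 0.0011) at the low and -0.54 (adjusted p = 0.00105) at the high dose of Palmul-tang. In Samul-tang MALAT1 did not pass, with -0.14 at the low dose (SE 0.13, adjusted p = 0.465) and -0.23 at the high dose (SE 0.13, adjusted p = 0.19).

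All vehicle libraries were in the set with high ribosomal counts, and the Palmul-tang and Sibjeondaebo-tang libraries were in the other. With the sets as a term, MALAT1 at the low dose of Sibjeondaebo-tang stood at -0.07 (SE 0.068, adjusted p = 0.543), at the low dose of Palmul-tang at -0.11 (adjusted p = 0.315) and at its high dose at -0.11 (adjusted p = 0.295). At the low dose of Samul-tang it turned to 0.06 (adjusted p = 0.542), and the high dose of Sibjeondaebo-tang stood at 0.16 (SE 0.068), against -0.27 without the term. KCNQ1OT1 stayed called at the high dose of Samul-tang (-0.45, adjusted p = 0.00172) and in none of the other 4, where it was -0.21 to -0.13. NORAD stayed called in 4 of the 5, with 0.14 to 0.20, and at the high dose of Palmul-tang it was 0.14 (adjusted p = 0.0663). TUG1 stayed called in 4 of the 5, with 0.21 to 0.24, and at the low dose of Sibjeondaebo-tang it was 0.16 (adjusted p = 0.123). The share of all genes called against vehicle moved to 18.3% for the low dose of Sibjeondaebo-tang and 16.2% for that of Palmul-tang. It was 17.6% for the high dose of Palmul-tang, and 24.7% for the low and 22.9% for the high dose of Samul-tang.

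Single libraries decided some of these calls. Without replicate 3 of the low dose of Samul-tang KCNQ1OT1 (-0.16, adjusted p = 0.493) and TUG1 (0.19, adjusted p = 0.0597) lost theirs. KCNQ1OT1 lost it at that dose also without vehicle replicate 1 (adjusted p = 0.0716) or 3 (adjusted p = 0.168). Without replicate 2 of that dose MALAT1 passed (-0.42, adjusted p = 0.0138), and without replicate 3 it stood at 0.10. KCNQ1OT1 at the high dose of Samul-tang (-0.60) passed whichever 1 library was left out, with -0.87 without replicate 2 and -0.37 without replicate 3 of that dose. Without replicate 3 of the high dose of Samul-tang NORAD lost its call (0.13, adjusted p = 0.113). Without replicate 1 of the low dose of Sibjeondaebo-tang NEAT1 passed against vehicle (0.33, adjusted p = 0.0325, and 0.20 with an adjusted p of 0.256 over all 3).

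**Figure D4:**
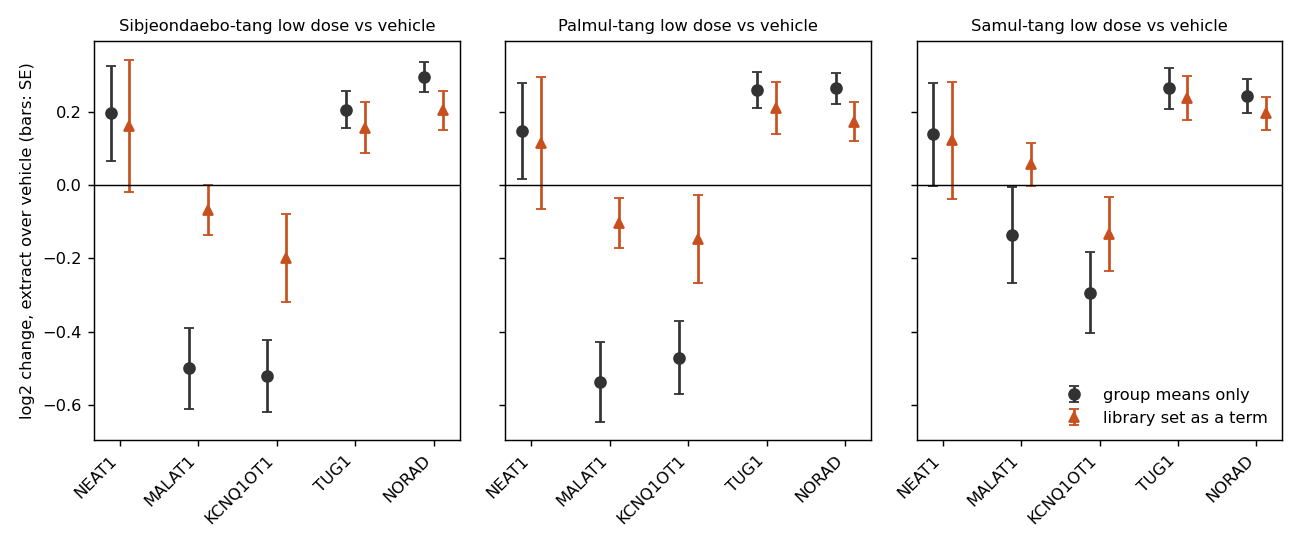
Fitted log2 change against vehicle (y axis, bars of 1 SE) of the 5 long RNAs (x axis) at the low dose of 3 formulas, from the fit of group means (circles) and from the fit with the library sets as a term (triangles). MALAT1 moves to -0.07, -0.11 and 0.06 with the term, while NORAD and TUG1 stay above 0.

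Genes that work with the 5 RNAs were counted from lists. At the high against the low dose of Sibjeondaebo-tang, where 18.5% of all genes were called higher and 19.9% lower, 9 of 21 paraspeckle protein genes were higher and 5 lower, with a median log2 change of 0.06 (-0.01 over all genes). HNRNPH1, a splicing regulator also found in paraspeckles, was lower (306 ± 14.2 against 451 ± 3.9 CPM, -0.56, adjusted p = 3.85e-10). HNRNPF (0.24) and HNRNPA1 (0.23) were higher. The core proteins NONO (-0.02, adjusted p = 0.678) and SFPQ (0.03, adjusted p = 0.596), which hold the long isoform, did not pass. NUDT21 and CPSF6 form the complex that favours the early poly(A) site of NEAT1. NUDT21 was higher (0.19, adjusted p = 0.00067) and CPSF6 lower (-0.10, adjusted p = 0.047).

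Of 8 nuclear speckle genes, 1 was higher and 4 lower at that contrast, with a median of -0.17. PNN was lower (96.2 ± 6.02 against 157 ± 5.72 CPM, -0.71, adjusted p = 3.41e-12), as were RBM25 (-0.67) and SRRM2, a scaffold of speckles (-0.66, adjusted p = 0.000253). RNPS1 was higher (0.16). Against the high dose of Palmul-tang, where 14.3% of genes were higher and 16% lower, 0 speckle genes were higher and 5 lower, and PNN stood at -0.78 (adjusted p = 7.5e-13). Of 12 RNase P and RNase Z genes, which process the ends of MALAT1 and long NEAT1, 6 were higher and 0 lower at the high against the low dose. RPP30 (0.24), RPP25 (0.32) and RPP40 (0.30) had the smallest adjusted p, from 0.000857 to 0.00134. ELAC2, which encodes RNase Z, did not pass (0.07, adjusted p = 0.114). Against the high dose of Palmul-tang, 2 of the 12 were higher and 0 lower. Against vehicle, 2 were higher and 5 lower at the high dose of Sibjeondaebo-tang, where 20% of all genes were higher and 21.8% lower.

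Of the NORAD partners, PUM2 (0.03, adjusted p = 0.652), a Pumilio protein gene, did not pass at that contrast and KHDRBS1, which encodes SAM68, was higher (0.22, adjusted p = 5.68e-05). Against vehicle, both were higher at the low dose of Sibjeondaebo-tang, where 18.6% of genes were higher, and PUM2 had 106 ± 2.15 against 87.9 ± 4.51 CPM (0.27, adjusted p = 5.03e-06).

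Genes beside the 5 RNAs moved in both directions at the high against the low dose of Sibjeondaebo-tang, where 18.5% of all genes were higher and 19.9% lower. Of 9 tested neighbours of NEAT1 and MALAT1, 3 were higher than at the low dose (among them MAP3K11 0.27 and ZNRD2 0.37) and SLC25A45 was lower (-0.29, adjusted p = 0.0168). FRMD8 (0.02, adjusted p = 0.818) did not pass. Of 5 tested genes in the domain of KCNQ1OT1, TSSC4 (0.38) and CD81 (0.37) were higher and SLC22A18 (-0.23) lower. CDKN1C, an imprinted inhibitor of the cell cycle, had 11.6 ± 0.552 against 9.65 ± 1.5 CPM (0.27, adjusted p = 0.0605). Against the high dose of Palmul-tang, where 14.3% of genes were higher, 4 of these 5 were higher and 0 lower, namely TSSC4 (0.40), CD81 (0.34), CDKN1C (0.41, adjusted p = 0.00893) and PHLDA2 (0.29, adjusted p = 0.0448). From vehicle to the high dose of Sibjeondaebo-tang, where 20% of all genes were higher and 21.8% lower, 1 of the 5 was higher and 2 lower. These were TSSC4 (0.22), SLC22A18 (-0.43) and PHLDA2 (-0.58). From vehicle to its low dose 0 were higher and 4 lower. Both of these contrasts cross the library sets. Of 7 neighbours of TUG1 and NORAD, 3 were higher and 1 lower at the high against the low dose, led by SCAND1 (0.42, adjusted p = 3.52e-05). Against vehicle, 7 of the 9 neighbours of NEAT1 and MALAT1 were lower and 0 higher at the low dose of Sibjeondaebo-tang, where 18.2% of all genes were lower, and this contrast crosses the library sets.

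Of 19 other well known long non-coding RNAs tested, 3 were higher and 8 lower at the high against the low dose of Sibjeondaebo-tang. Of all genes, 18.5% were called higher and 19.9% lower there. The median log2 change was -0.19 in the list and -0.01 over all genes. MIR22HG, the host of miR-22, was lower (23 ± 1.2 against 35.4 ± 2.29 CPM, -0.62, adjusted p = 2.65e-09). LINC-PINT (-0.92), a p53-induced long RNA, and the snoRNA host SNHG1 (-0.37) were lower too. CYTOR (0.35, adjusted p = 0.000635) and the imprinted RNA H19 (0.30, adjusted p = 0.0248) were higher, and GAS5 (-0.19, adjusted p = 0.0785) did not pass.

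In Samul-tang high against low, LINC-PINT (-0.49, adjusted p = 0.0312) was the 1 gene called of 84 tested over the 8 lists, or 1.19%, near the 1.34% of all genes called. In Palmul-tang against Samul-tang at the high dose the 1 call of 84 was EHBP1L1 (0.30, adjusted p = 0.0384), a neighbour of NEAT1 and MALAT1, with 0.192% of all genes called. In Palmul-tang high against low, 1 of the 84 was called, against 3.47% of all genes.

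The genes whose log2 CPM was most like that of NEAT1 over the 30 libraries, among 11152 of mean log2 CPM of at least 2, were AHSA2P (Pearson r = 0.983), UBE2G2 (0.982), NSUN5P1, CCNL2 and GOLGA8B (0.98 each). CCNL2 encodes a cyclin of nuclear speckles, and UBE2G2 a ubiquitin-conjugating enzyme. NSUN5P1 is annotated as an unprocessed pseudogene and GOLGA8B belongs to a family of near-identical copies, so their counts may share reads with relatives. Whether AHSA2P, annotated as a unitary pseudogene, shares reads with other genes was not tested. AHSA2P had 32.5, 31.6 and 36.4 CPM at the high dose of Sibjeondaebo-tang, and CCNL2 averaged 35.1 CPM there, against 94.4 CPM at the low dose. Over the 27 libraries that leave out high-dose Sibjeondaebo-tang the nearest were AHSA2P (0.887), UBE2G2 (0.883), PABPC1L (0.874), ECHDC2 (0.873) and GOLGA8B (0.859). These values are descriptions of libraries that share groups and cells.

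**Figure D5:**
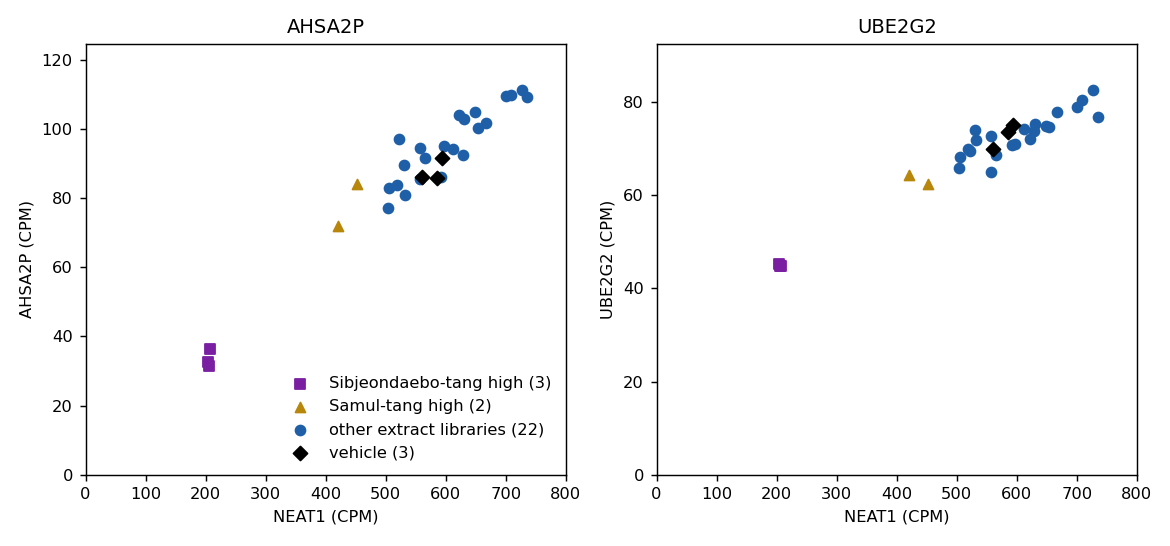
AHSA2P (left) and UBE2G2 (right) in CPM (y axes, from 0) against NEAT1 in CPM (x axes), 1 point per library. The 3 high-dose Sibjeondaebo-tang libraries lie lowest on all axes and the 2 high-dose Samul-tang libraries are next on the NEAT1 axis.

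TUG1 was most like RAD50, a DNA repair gene (r = 0.986), CEP290 (0.959) and THOC2 (0.954) over the 30 libraries. KCNQ1OT1 was most like INPP5E (0.885), TNPO2 (0.884) and RAB24 (0.875), and NORAD most like LANCL1, ZNF24 (0.915 each) and FGL1 (0.908). These pooled values also hold the split between the library sets. Within the 22 libraries of low ribosomal counts r was 0.838, 0.891 and 0.837 for KCNQ1OT1 and 0.817, 0.708 and 0.727 for NORAD. Within the 8 it was 0.905, 0.835 and 0.631 for KCNQ1OT1 and 0.931, 0.909 and 0.896 for NORAD. The genes most like MALAT1 were the ribosomal rows FP671120.3, FP236383.2 and FP236383.3. Since the libraries fall into 2 sets on those rows, no pooled r is given, and r was 0.548, 0.51 and 0.343 within the 22 libraries and -0.026, 0.187 and 0.187 within the 8. Among the 5 RNAs, NEAT1 and TUG1 had r = 0.76 over 30 libraries and -0.09 over the 27, and NEAT1 and KCNQ1OT1 had 0.67 and 0.07.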

How the data were processed

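Per the labels, total RNA of integrity number above 7 went into directional libraries sequenced as 100 bp pairs. Per the submitters' processing notes, FastQC 0.11.9, Trim Galore 0.6.5, STAR 2.7.3a and RSEM 1.3.3 were used on GRCh38; the strand setting and annotation release are not given in the sources used here. The authors deposited expected counts for each gene, of which 8.5% to 9.82% per library are not whole, since RSEM divides reads shared by genes. They were rounded here. The table also holds 240 columns of other samples, which were not used.

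One mean per group was fitted over all 30 libraries with edgeR 4.0.16 in R 4.3.3 (filterByExpr, TMM factors 0.923 to 1.0515, quasi-likelihood F test, 17 residual degrees of freedom). The biological coefficient of variation was 0.0496. P-values were adjusted by Benjamini-Hochberg over 17701 genes, with a threshold of 0.05. The SE is the log2 change divided by the square root of F. CPM uses TMM-scaled library sizes.

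The members, gene lists and comparisons were chosen with earlier results of these data known. Up to 3 genes per list and contrast with the smallest adjusted p, any list member with its values, and the genes of highest Pearson r with a member could be named. Libraries were not paired by replicate number in the main fit. Alternatives were RLE factors, no filter, DESeq2 1.42.0, fits of only the groups compared, a replicate block and leaving out each library. Thinned counts, a fit without the high dose of Sibjeondaebo-tang, the library sets as a term and fits within each set were added after the data were seen. Results of a few list genes are not reported here.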

Additional observations from a re-analysis of the deposited data

How the results depend on the processing

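The log2 differences of NEAT1, KCNQ1OT1 and TUG1 at the high dose of Sibjeondaebo-tang kept their sign under every alternative run. The cause of each change below was not tested. For Samul-tang high against low, 1 of the 5 RNAs (NEAT1) was called in a fit of only the groups compared and with DESeq2, against 0 as reported. Within the 8 libraries of high ribosomal counts 1 library stands against 1 and the spread comes from vehicle alone, so no count of calls is given. For Palmul-tang against Samul-tang at the high dose, 1 (NEAT1) was called in a fit of only those groups. The NEAT1 call at the high dose of Samul-tang against vehicle was lost without the filter on low counts (adjusted p = 0.0673), without the high dose of Sibjeondaebo-tang in the fit (0.0519) and with the library sets as a term (0.0681). The KCNQ1OT1 call at its low dose was lost with DESeq2 (0.0717) and thinned counts (0.0742). RLE factors changed no call. Without replicate 2 of the high dose of Sibjeondaebo-tang, the difference of NORAD from the high dose of Palmul-tang moved to 0.005.

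With the sets as a term the calls against vehicle were 1 at the low dose of Sibjeondaebo-tang (18.3% of all genes were called), 2 at the low dose of Palmul-tang (16.2%) and 1 at its high dose (17.6%). Within the 8 libraries single Samul-tang libraries are assumed to vary like the vehicle, so no count of calls is given there. MALAT1 turned to 0.056 (term) and 0.108 (8 libraries) at the low dose of Samul-tang against vehicle and to 0.16 (term) at the high dose of Sibjeondaebo-tang, and NEAT1 to -0.023 (term) at the high dose of Palmul-tang. Within the 22 libraries MALAT1 turned to 0.024 for Samul-tang high against low and to -0.029 for the difference of dose responses, and NORAD to -0.020 for Palmul-tang against Samul-tang at the high dose.

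Leaving out 1 library at a time gave 2 to 3 calls at the high and 1 to 4 at the low dose of Samul-tang against vehicle. None of the values that changed sign was called. In Samul-tang, MALAT1 ran from -0.33 to 0.19 (high against low), -0.32 to 0.21 (medium against low) and -0.42 to 0.10 (low against vehicle, where -0.42 was called), and KCNQ1OT1 from -0.20 to 0.074 (medium against low). For Palmul-tang against Samul-tang at the high dose, NORAD ran from -0.018 to 0.10 and KCNQ1OT1 from -0.16 to 0.34. For the difference of dose responses, NORAD ran from -0.038 to 0.079 and MALAT1 from -0.20 to 0.33. In Palmul-tang, NEAT1 ran from -0.046 to 0.074 (high against vehicle) and -0.22 to 0.032 (medium against low), and KCNQ1OT1 from -0.066 to 0.043 (medium against low) and -0.14 to 0.016 (high against low). For Sibjeondaebo-tang against Palmul-tang, KCNQ1OT1 ran from -0.062 to 0.038 (medium), and NEAT1 from -0.085 to 0.18, MALAT1 from -0.005 to 0.062 and NORAD from -0.007 to 0.060 (low). For Sibjeondaebo-tang medium against low, MALAT1 ran from -0.042 to 0.013 and TUG1 from -0.017 to 0.054.

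With the replicate number as a block, 1 of the 5 (NEAT1) was called for Samul-tang high against low (-0.55, adjusted p = 0.00487) and 1 (NEAT1) for Palmul-tang against Samul-tang at the high dose (0.50, adjusted p = 0.0219), and no other call changed. Over all genes, deviations from group means of libraries with the same number had a median correlation of 0.005 over 111 pairs (-0.118 to 0.091). The numbers were therefore not taken as pairs in the main fit. A median over all genes cannot exclude a shift shared by replicate number in a single gene. For NEAT1, replicate 1 was the lowest library in several groups.

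Limits are the 2 libraries per dose of Samul-tang, the single ones of Sagunja-tang, 1 cell line, gene counts that join isoforms, and library sets that coincide with vehicle against Palmul-tang and Sibjeondaebo-tang. Between the high and low doses of Palmul-tang the SE did not follow abundance among the 5 RNAs. It was 0.10 for KCNQ1OT1, the least abundant, 0.13 for NEAT1, 0.11 for MALAT1, 0.049 for TUG1 and 0.041 for NORAD.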
